A study of Mus musculus with 10 samples.

Results

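This account describes 7 neuronal and glial genes, Pmp22, Mbp, Sox10, Gfap, Snap25, Syt1 and Stmn2, in cells sorted as meningeal lymphatic endothelial cells (LECs). They were taken by symbol from the 55401 genes of the deposited count table, and they were chosen by their counts in these 10 replicates, which were already known, so their differences between groups are a description and carry no test. The cells were CD45-CD31+podoplanin+ and came from the dura of female C57BL/6 mice (C57BL/6J in the study's methods) aged 3 months, either naive, meaning non-stressed, or exposed to 6 days of sub-chronic variable stress (SCVS). Each group had 5 replicates, and each replicate was 1 pool of cells from 3 to 4 animals. Both groups were perfused, and both digestions contained actinomycin D, which blocks transcription. The sorted RNA was amplified over the whole transcriptome before sequencing.

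The dura holds lymphatic and blood vessels, fibroblasts and immune cells, and it is crossed by sensory and sympathetic nerve fibres whose axons are wrapped by Schwann cells. Oligodendrocytes and astrocytes belong to the brain and spinal cord. Axons carry little mRNA, since the cell bodies of these neurons lie in ganglia. An endothelial gate is therefore not a place where transcripts of synapses, myelin or astrocyte filaments are usually sought. In bulk RNA, fewer cells of a type and less RNA per cell cannot be told apart.

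The libraries held between 9984743 and 14094155 counts on genes. Values are given as CPM, the count scaled to a library total of 1000000, and 3 counts, which correspond to 0.213 to 0.3005 CPM, were taken as the limit of detection. The reads carry no molecular identifiers, so this limit covers counting error only. Naive replicate 5 stood apart in several endothelial markers, but not in all. Pecam1, which encodes CD31 of the sorting gate, had 21.5 CPM in Naive replicate 5 and 536 to 1119 CPM in the other 9 replicates. Cldn5, the endothelial tight junction gene, had 2 counts there. The lymphatic gene Prox1 was not low there, at 63.2 CPM, against 0 to 223 CPM elsewhere. Pdpn, which encodes podoplanin of the gate, had 26.3 CPM there and 0 to 221 CPM elsewhere. In Naive replicate 1 the lymphatic genes Prox1 and Pdpn had 0 counts and Lyve1 had 2. Results that rest on Naive replicate 5 are given with and without it.

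Promoter sequences show what is annotated at the start of the members for which a sequence was at hand, namely 3 of 7. They are from RefSeq on GRCm38.p6, run 5′ to 3′ on the gene's strand from 250 bases before to 50 after the outermost annotated start, and CG dinucleotides, the sites of DNA methylation in mammals, are in capitals. They lie at chr11:63128732-63129031 (plus strand, Pmp22), chr11:102897151-102897450 (minus strand, Gfap) and chr10:109010926-109011225 (minus strand, Syt1).
Pmp22: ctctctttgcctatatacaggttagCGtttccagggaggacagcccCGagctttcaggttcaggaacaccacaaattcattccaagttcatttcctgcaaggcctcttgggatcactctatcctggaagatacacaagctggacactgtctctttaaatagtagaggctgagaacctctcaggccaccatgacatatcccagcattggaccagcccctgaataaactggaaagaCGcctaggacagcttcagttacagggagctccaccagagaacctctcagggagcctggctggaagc
Gfap: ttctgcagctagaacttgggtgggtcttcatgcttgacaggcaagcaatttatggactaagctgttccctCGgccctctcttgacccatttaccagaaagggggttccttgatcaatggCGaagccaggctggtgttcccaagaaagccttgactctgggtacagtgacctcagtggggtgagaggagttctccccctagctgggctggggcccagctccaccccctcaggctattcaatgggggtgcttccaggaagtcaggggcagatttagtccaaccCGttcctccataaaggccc
Syt1: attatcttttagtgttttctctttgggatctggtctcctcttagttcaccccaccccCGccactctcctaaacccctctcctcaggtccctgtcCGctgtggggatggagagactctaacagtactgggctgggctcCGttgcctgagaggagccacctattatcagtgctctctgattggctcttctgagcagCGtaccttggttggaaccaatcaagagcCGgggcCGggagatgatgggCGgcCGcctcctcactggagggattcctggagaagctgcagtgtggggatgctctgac
The windows of Pmp22 and Gfap each held 3 CG dinucleotides, and 23.3% of the 32851 annotated promoters of this length held fewer. The window of Syt1 held 8, and 51.4% of promoters held fewer. A CG is its own reverse complement, so both strands give the same count, and 94.6% of promoters held at least 1. Pmp22 has 4 annotated starts and Syt1 has 2, so the start used in these cells may differ from the one shown.

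All 7 members were detected in several replicates, but they fell into a widely expressed and a patchy set. Pmp22, Mbp and Stmn2 had more than 3 counts in all 10 replicates. Snap25 was above this limit in 9, Gfap and Sox10 in 7 each, and Syt1 in 5. With a limit of 10 counts, Gfap and Sox10 were each detected in 6 replicates and the other members were detected in as many as before. Together the members took 0.0282% to 0.342% of the reads in a library. All 7 passed the filter on low counts, as did 14815 genes in all.

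Among the glial members, Pmp22 was the most even. Pmp22 (ENSMUSG00000018217, chromosome 11, 63128982 to 63159547 on GRCm38.p6) encodes a membrane protein of compact peripheral myelin that is also made outside nerve. It measured 137, 269, 122, 195 and 94.8 CPM in Naive replicates 1 to 5, and 138, 176, 128, 101 and 80.5 CPM in SCVS replicates 1 to 5. The groups overlapped, with Naive replicate 2 highest and SCVS replicate 5 lowest, 3.34-fold apart. The coefficient of variation over the 10 replicates was 0.389, and 8.93% of the tested genes had a lower one. The mean was 163 ± 69.2 CPM in naive and 125 ± 36.7 CPM in SCVS replicates (SD, n = 5 each).

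Mbp (ENSMUSG00000041607, chromosome 18, 82475091 to 82585637) encodes myelin basic protein, a structural protein of myelin made by oligodendrocytes and Schwann cells. It measured 107, 61.6, 76.4, 597 and 1245 CPM in Naive replicates 1 to 5, and 153, 22.7, 8.36, 986 and 565 CPM in SCVS replicates 1 to 5. Replicates 4 and 5 of both groups were high and the others low, the ranges overlapped, and the highest library exceeded the lowest 149-fold. In Naive replicate 5, Mbp lay above 99.6% of the detected genes, and in SCVS replicate 3 above 39.2%. The Mbp locus overlaps the annotated genes Rpl21-ps8 and Gm52337, and since the use of strand in counting is not given in the sources used here, reads in the overlaps cannot be assigned with certainty. The group means were 417 ± 514 CPM in naive and 347 ± 422 CPM in SCVS replicates (SD, n = 5 each). Without Naive replicate 5 the naive mean was 210 ± 258 CPM (SD, n = 4), below that of SCVS.

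Sox10 (ENSMUSG00000033006, chromosome 15, 79154913 to 79164490) encodes a transcription factor of Schwann cells and oligodendrocytes. It measured 27.4, 0.47, 0.072, 6.12 and 48.0 CPM in Naive replicates 1 to 5, and 0.071, 70.2, 26.3, 28.6 and 0 CPM in SCVS replicates 1 to 5. Naive replicates 2 and 3 and SCVS replicates 1 and 5 held between 0 and 6 counts, so each group had replicates at or near 0 and replicates with at least 83. SCVS replicate 5, with 0 counts of Sox10, had 565 CPM of Mbp.

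Gfap (ENSMUSG00000020932, chromosome 11, 102887336 to 102897200) encodes the intermediate filament of astrocytes, also made by some non-myelinating Schwann cells. It measured 167, 0, 41.5, 94.8 and 154 CPM in Naive replicates 1 to 5, and 0.284, 0.082, 0, 269 and 122 CPM in SCVS replicates 1 to 5. The values were either above 40 CPM or at most 4 counts, in both groups. Gfap and Sox10 were each detected in 7 replicates, both in 4, and 1 without the other in 6.

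The neuronal members covered a wider range than Pmp22. Snap25 (ENSMUSG00000027273, chromosome 2, 136713439 to 136782428, overlapping Gm32659) encodes a SNARE protein of the presynaptic membrane needed for vesicle fusion. It measured 189, 17.5, 102, 76.7 and 1538 CPM in Naive replicates 1 to 5, and 126, 0, 40.7, 190 and 904 CPM in SCVS replicates 1 to 5. Replicate 5 of each group was far above the others, and the lowest value of all was in SCVS replicate 2. Of all Snap25 reads in the series, 52.6% were in Naive replicate 5.

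Syt1 (ENSMUSG00000035864, chromosome 10, 108497650 to 109010980, overlapping Gm36601 and Gm5136) encodes synaptotagmin 1, the calcium sensor of fast transmitter release. It measured 0, 0, 0.143, 2.06 and 129 CPM in Naive replicates 1 to 5, and 0, 0, 22.9, 3.7 and 100.1 CPM in SCVS replicates 1 to 5. Replicate 5 was again the highest of each group, and replicates 1 and 2 of both groups had no read. Of all Syt1 reads, 55.8% were in Naive replicate 5.

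Stmn2 (ENSMUSG00000027500, chromosome 3, 8509527 to 8561604) encodes stathmin 2, a microtubule regulator of growing axons. It measured 20.3, 30.3, 52.6, 67.1 and 208 CPM in Naive replicates 1 to 5, and 42.6, 13.1, 151, 22.1 and 25.3 CPM in SCVS replicates 1 to 5. Its highest SCVS library was replicate 3, not replicate 5, so it parted from Snap25 and Syt1 there. The groups overlapped, as they did for all 7 members.

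**Figure D1:**
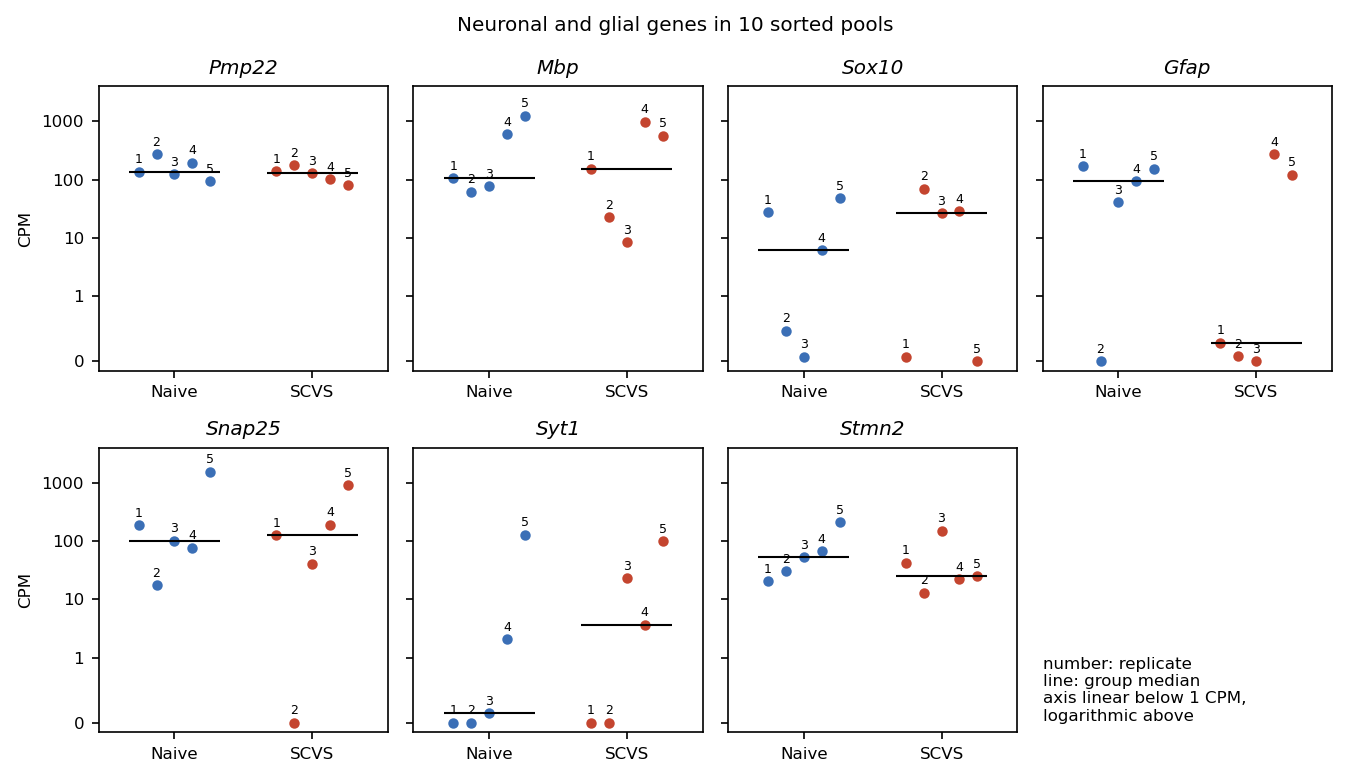
CPM of the 7 members in the 5 naive and 5 SCVS replicates, on an axis that is linear below 1 CPM and logarithmic above, with numbers naming the replicate and a line at the group median. Pmp22 stays between 80.5 and 269 CPM, while Syt1 spans 0 to 129 CPM and Naive replicate 5 is the highest of all for Mbp, Snap25, Syt1 and Stmn2.

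The plot by replicate shows the same split. Per kb of exon, the median level of Pmp22 was 56.3 CPM per kb, that of Stmn2 19.1, of Snap25 16.8, of Gfap 16.2, of Mbp 15.5, of Sox10 5.97 and of Syt1 0.132. Stmn2 to Mbp lie within a narrow band of this order, and their replicate values overlap, so their order is not resolved. The coefficients of variation ran from 1.03 for Stmn2 through 1.09 for Gfap, 1.16 for Sox10, 1.17 for Mbp and 1.58 for Snap25 to 1.85 for Syt1. The median over all tested genes was 0.928, so 6 of the 7 members varied more between replicates than the median gene did.

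Between SCVS and naive replicates, the CPM of all 7 members overlapped, and only the fitted difference of Pmp22 exceeded its standard error. With edgeR's quasi-likelihood fit, the SCVS minus naive log2 fold change was -0.44 (SE 0.36) for Pmp22, the member with the smallest error. It was -0.26 (SE 1.19) for Mbp and 0.48 (SE 1.86) for Sox10. It was -0.24 (SE 1.94) for Gfap. For the neuronal genes the values were -0.63 (SE 1.51) for Snap25, -0.06 (SE 2.40) for Syt1 and -0.58 (SE 0.83) for Stmn2. Each estimate except that of Pmp22 lay within 1 standard error of 0. At an adjusted p of 0.1, edgeR called 0 of the 7 members, against a background of 0.0% of the 14815 tested genes. DESeq2 also called 0 of the 7, against 0.769% of tested genes. It gave no adjusted p to 817 of the 14815 tested genes, Snap25 among them. Of all tested genes, 460 had an unadjusted edgeR p below 0.05.

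The directions depended on Naive replicate 5. With all 10 replicates, 6 of the 7 members had a lower fitted level in SCVS and Sox10 had a higher one. Without Naive replicate 5, 6 had a higher fitted level in SCVS and Pmp22 a lower one. The directions that turned were those of Mbp (0.74, SE 1.19), Gfap (0.02, SE 2.11), Snap25 (1.37, SE 1.46), Syt1 (5.54, SE 2.91) and Stmn2 (0.27, SE 0.81). Pmp22 kept its sign at -0.57 (SE 0.34), as did Sox10 at 1.43 (SE 2.08). The median log2 fold change over all tested genes was -0.03 with and 0.04 without that replicate.

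**Figure D2:**
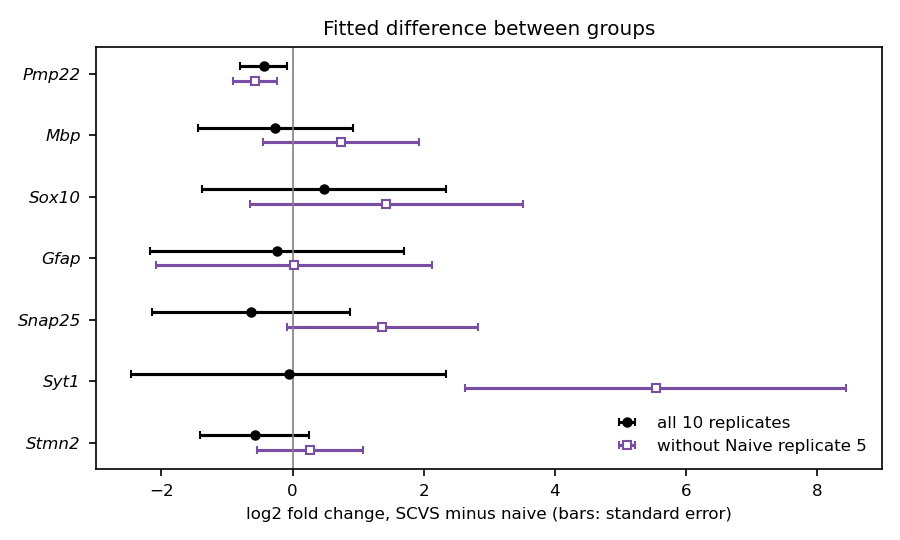
Fitted log2 fold change (SCVS minus naive) of each member with its standard error as a bar, from all 10 replicates (filled circles) and without Naive replicate 5 (open squares). Mbp, Gfap, Snap25, Syt1 and Stmn2 cross 0 when that replicate is left out, with Syt1 moving from -0.06 to 5.54, while Pmp22 stays below 0 and Sox10 above it.

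The 4 members Mbp, Snap25, Syt1 and Stmn2 had their highest level of the 10 replicates in Naive replicate 5, the library with few endothelial reads, whereas 14.7% of all tested genes did. Pmp22 was highest in Naive replicate 2, Gfap in SCVS replicate 4 and Sox10 in SCVS replicate 2. The 8 blood endothelial genes listed for context summed to 313 CPM in Naive replicate 5 and to at least 5219 CPM in each of the other 9. The 8 lymphatic endothelial genes summed to 206 CPM there and to at least 1027 CPM elsewhere. The part of these markers in the level of the 4 members was not tested.

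Genes of synaptic vesicles and transmitter release, of which 25 were listed, were most fully detected in Naive replicate 5. It held more than 3 counts for all 25, whereas the other naive replicates held them for 11 to 15 and the SCVS replicates for 10 to 19. Among the 22 tested, 13 (59.1%, and 40.0% among those with at least 10 counts in 5 or more replicates) were highest in Naive replicate 5, 3 had a higher and 19 a lower fitted level in SCVS, and edgeR called none. The median log2 fold change of -1.27 became 0.22 without Naive replicate 5, with 13 then higher. Rab3a, a small GTPase of synaptic vesicles, measured 470 CPM in Naive replicate 5 and between 0.192 and 202 CPM elsewhere. Vamp2, the vesicle SNARE that pairs with Snap25, was detected in all 10 replicates, at 116 ± 109 CPM in naive and 104 ± 55.8 CPM in SCVS (SD, n = 5 each). Without Naive replicate 5 its naive mean was 68.1 ± 27.0 CPM (SD, n = 4), below that of SCVS. Nsf, which takes spent SNARE complexes apart, was also detected in all 10.

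Of 39 genes of the neuronal cytoskeleton and neuronal identity, 25 were tested, of which 15 were highest in Naive replicate 5. That replicate held 25 of the 39 above 3 counts, the other naive replicates 11 to 17 and the SCVS replicates 11 to 22. The sensory and sympathetic neuron genes Trpv1, Scn10a, Pou4f1 and Dbh did not pass 3 counts in any replicate. Of the 25 tested genes, 5 had a higher and 20 a lower fitted level in SCVS, the median log2 fold change was -0.78, and edgeR called none. Without Naive replicate 5 the median was 0.24 and 14 were higher. Map2, a dendritic microtubule protein, measured 234 CPM in Naive replicate 5 and between 0.639 and 91.3 CPM elsewhere. Gap43, a growth cone protein, measured 179.5 CPM there and 0 to 91.2 CPM elsewhere. Gad1, which makes GABA, did not follow them, with 55.7 CPM in Naive replicate 5 and its highest value, 126 CPM, in SCVS replicate 4.

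Prph (ENSMUSG00000023484, chromosome 15, 99053579 to 99058978) encodes the peripheral neuron filament peripherin. It was the only listed gene, members and cell type markers included, whose groups did not overlap in CPM, and 0.628% of all tested genes did not. Naive replicates 1 to 5 held 1, 1, 43, 174 and 1425 of its reads, and SCVS replicates 1 to 5 held 0, 0, 0, 1 and 0. In counts the groups touched, at 1 count in Naive replicates 1 and 2 and in SCVS replicate 4, all within the limit of detection. In CPM they parted only through library size, at 0.0783 CPM in Naive replicate 2 and 0.0756 CPM in SCVS replicate 4. Relative to 3 counts in each SCVS library, the SCVS mean was at least 99.99-fold lower than the naive mean of 24.6 CPM. Without Naive replicate 5 it was at least 16.3-fold lower. Both bounds cover counting error only. Prph passed the filter, more than 5 counts in 3 or more replicates, only through Naive replicates 3, 4 and 5. It is set apart here because its groups did not overlap, so the bounds and the p-values are a description and carry no test. The adjusted p was 0.964 by edgeR's quasi-likelihood test, 0.000526 by DESeq2 and 0.0997 by edgeR's likelihood ratio test. Without Naive replicate 5 it was 0.207 by DESeq2, a fit in which 1.82% of tested genes were called.

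A larger share of the astrocyte list was detected in each replicate than of the myelin or Schwann cell list. All 15 genes were tested, all 15 had more than 3 counts in Naive replicate 5, and between 7 and 14 had them in the other replicates. Of these, 8 (53.3%) were highest in Naive replicate 5. Fitted levels were higher in SCVS for 4 and lower for 11, with a median log2 fold change of -0.30 (0.37 without Naive replicate 5, 9 then higher), and edgeR called none. Slc1a2, the main astrocyte glutamate transporter, measured 586 CPM in Naive replicate 5, at most 1.07 CPM in 5 replicates, and between 69.4 and 248 CPM in the other 4. Aldoc, an astrocyte glycolytic enzyme, measured 1757 CPM in Naive replicate 5 and 4.78 to 623 CPM elsewhere. Gja1, a connexin of astrocytes that endothelium and fibroblasts also make, ran the other way, with its lowest value, 53.2 CPM, in Naive replicate 5. Glul, the glutamine synthetase that many cell types make, had at least 334 CPM in all 10.

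Of 21 myelin and oligodendrocyte genes, 13 were tested, 2 (15.4%) were highest in Naive replicate 5, close to the 14.7% over all tested genes, and edgeR called none. Of these, 10 had a lower and 3 a higher fitted level in SCVS, with a median log2 fold change of -0.26 (-0.30 without Naive replicate 5). Mobp, an oligodendrocyte myelin protein, followed Mbp, with 451 CPM in Naive replicate 5, 170 in Naive replicate 4, 343 in SCVS replicate 4, 205 in SCVS replicate 5, 37.4 in Naive replicate 3 and at most 3 counts in the other 5. Mal, a raft protein of myelin that other cells also make, was detected in all 10 and was among the lowest in Naive replicate 5, at 77.3 CPM. Mog, a late oligodendrocyte surface protein, and Nkx2-2 and Nkx6-2, oligodendrocyte transcription factors, did not pass 3 counts in any replicate.

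Of 18 Schwann cell genes, 9 were tested, 4 had a higher and 5 a lower fitted level in SCVS, and edgeR called none. The median log2 fold change was -0.08, and 0.56 without Naive replicate 5. Ncmap, a gene of myelinating Schwann cells, did not pass 3 counts in any replicate. Fabp7, made by immature Schwann cells, radial glia and astrocytes, was detected in all 10, at 451 ± 340 CPM in naive and 431 ± 241 CPM in SCVS (SD, n = 5 each), with 1013 CPM in Naive replicate 5. Without that replicate the naive mean of Fabp7 was 310 ± 150.2 CPM (SD, n = 4), below that of SCVS. S100b, a calcium-binding protein of Schwann cells and astrocytes, was also detected in all 10, at 150.1 ± 83.7 and 97.4 ± 111 CPM.

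**Figure D3:**
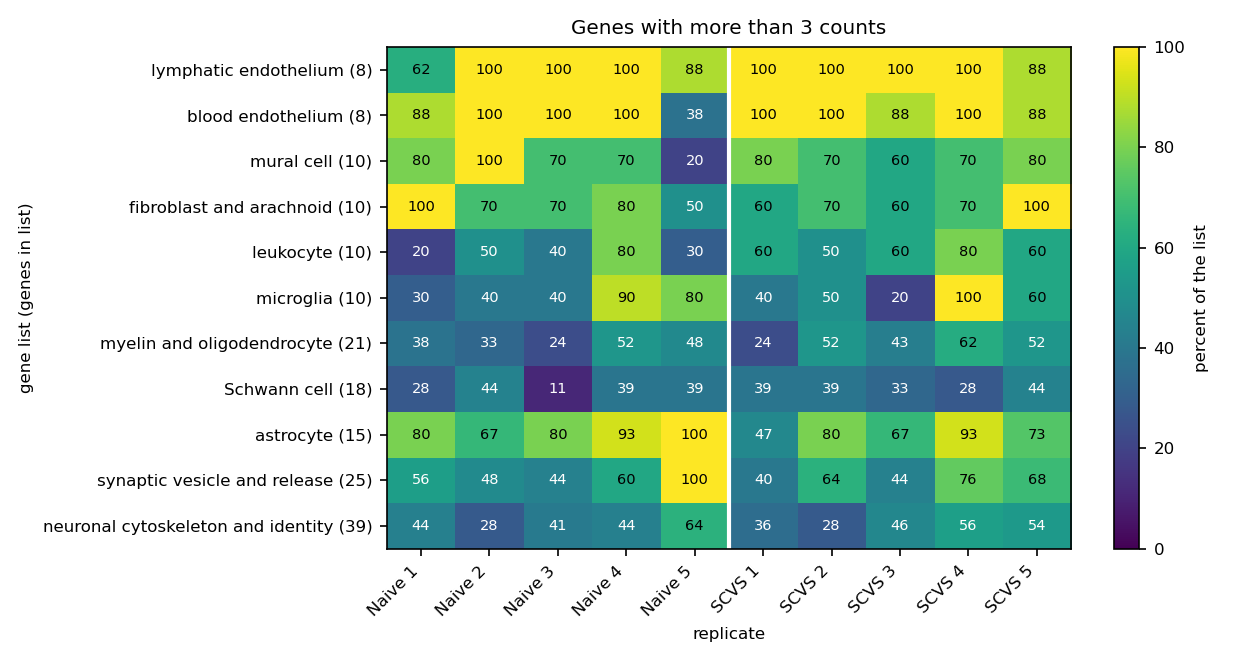
Percent of the genes in each list, with the size of the list in parentheses, that had more than 3 counts in each of the 10 replicates. Naive replicate 5 holds all 15 astrocyte and all 25 synaptic genes but 3 of the 8 blood endothelial genes, and no replicate holds more than 8 of the 18 Schwann cell genes.

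The map of detection also shows the other cell types beside the members. Microglial genes, checked because they mark brain tissue, had more than 3 counts for all 10 in SCVS replicate 4, which was also the library highest in Gfap and second highest in Mbp. Their summed level was 88 to 1172 CPM in SCVS and 140 to 347 CPM in naive replicates. The leukocyte list was also highest in SCVS replicate 4, at 7455 CPM, although the gate was CD45-. The fibroblast and erythroid lists were highest in SCVS replicate 5, at 1952 and 4915 CPM. Whether these cells account for any member's level was not tested.

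Paralogs of the members, some made in many cell types and others mainly in neurons, serve as a comparison within each family. Snap23, the SNARE that takes the place of Snap25 outside neurons, had its lowest level in Naive replicate 5, at 8.03 CPM, where Snap25 had its highest. In the other 9 replicates Snap23 measured 51.2 to 200.4 CPM. Per kb of exon, the median of Snap23 was 23.3 CPM per kb and that of Snap25 16.8. Snap47 was detected in all 10 and was highest in Naive replicate 5, at 184 CPM, against 24.9 to 92.5 CPM elsewhere. Snap29 was detected in 8.

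The relatives of Pmp22 behaved in part as Pmp22 did. Emp2 and Emp3, epithelial membrane proteins, were detected in all 10, with medians of 34.8 and 68.7 CPM per kb beside 56.3 for Pmp22. Emp1 had 0.375 CPM in Naive replicate 5 and 0.384 CPM in Naive replicate 1, against 29.8 to 215 CPM in the other 8, whereas Pmp22 measured 94.8 and 137 CPM in those 2 libraries. Pmp22 was thus present in a library where Pecam1, Cldn5 and Emp1 were low.

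Stmn1, the stathmin of dividing and many other cells, was detected in all 10, with a median of 103 CPM per kb against 19.1 for Stmn2. Stmn1 too was highest in Naive replicate 5, at 637 CPM, against 120 to 447 CPM elsewhere. Stmn3, a neuronal stathmin, was highest in Naive replicate 5, at 144 CPM, and had 0 counts in SCVS replicate 2. Stmn4 was detected in 6. Among synaptotagmins, Syt11, which binds no calcium, was detected in all 10, whereas Syt1 was in 5, and was highest in Naive replicate 5, at 135 CPM. Syt2, the calcium sensor of fast synapses in the hindbrain and spinal cord, was detected in 3, Syt7 in 6 and Syt3 in 1.

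Sox9, a relative of Sox10 made by astrocytes and many progenitors, was detected in 9 replicates and Sox8 in 1. Among filaments related to Gfap, Vim, the filament of endothelium and fibroblasts, was detected in all 10 at 251 ± 140 CPM in naive and 158 ± 48.9 CPM in SCVS (SD, n = 5 each). Desmin (Des) was detected in 3. Of the 18 paralogs 15 were tested, 5 had a higher and 10 a lower fitted level in SCVS, the median log2 fold change was -0.32 (-0.07 without Naive replicate 5), and edgeR called none. Among the 15 tested, 7 (46.7%) were highest in Naive replicate 5, against 14.7% of all tested genes. The share was 41.7% among paralogs with at least 10 counts in 5 or more replicates.

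**Figure D4:**
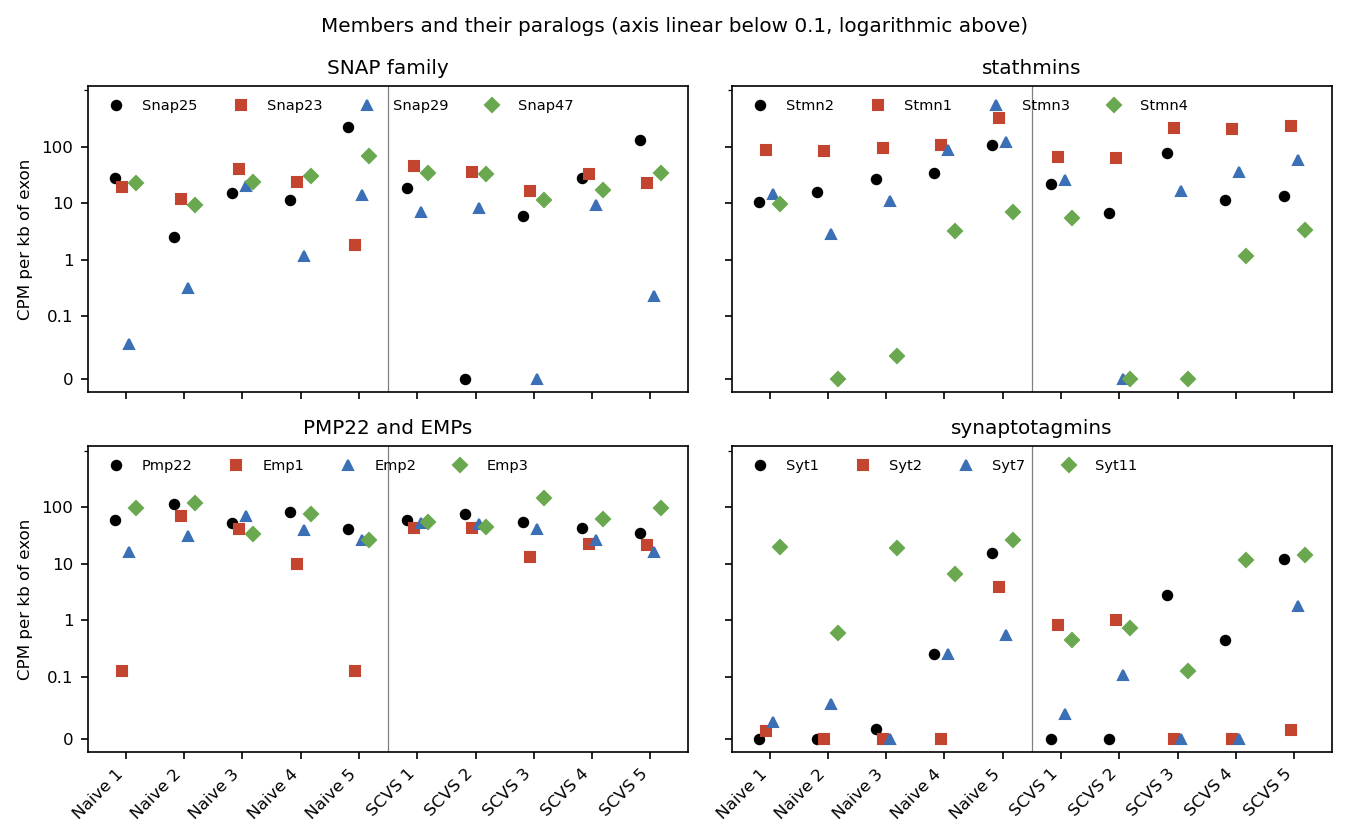
Level per kb of exon, in CPM per kb on an axis linear below 0.1 and logarithmic above, of Snap25, Stmn2, Pmp22 and Syt1 (black circles) and 3 paralogs of each, in the 10 replicates. Snap23 has its lowest value in Naive replicate 5, where Snap25, Snap47 and Stmn1 have their highest, and Stmn1 lies above Stmn2 in all 10.

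The panels by family show that the widely expressed paralog was not always steady. Likeness between members over the 10 replicates is given as Spearman's rho of log2(CPM + 1), as a description, since all genes of a replicate share its library and depth. Mbp, Gfap and Snap25 varied together, with rho of 0.80 for Mbp and Gfap, 0.81 for Mbp and Snap25 and 0.81 for Gfap and Snap25 (0.82, 0.73 and 0.83 without Naive replicate 5). Pmp22 ran against Snap25 (rho -0.81, and -0.75 without Naive replicate 5) and Syt1 (-0.76 and -0.69). Snap25 and Syt1, partners at the same synaptic site, had a rho of 0.59, and 0.44 without Naive replicate 5. Sox10 had rho between -0.16 and 0.21 with the other members, and between -0.45 and 0.18 without Naive replicate 5.

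Among all tested genes, those most like Mbp included Slc1a2 (rho 0.952) and Eno2 (0.948), a neuronal enolase. For Pmp22 the closest were Serpinb6b (0.948), Nkd2 (0.919) and P3h1 (0.903), and for Gfap they were Spire1 (0.973), Acot7 (0.936) and Ccdc30 (0.935). For Sox10 they were Sult1e1 (0.924), Ctf1 (0.914) and Chd7 (0.903). For the neuronal members the closest were Uck1 (0.952), Slc25a33 (0.951) and Pnmal1 (0.937) to Snap25, Stmn1 (0.969), Gm11223 (0.957) and Ssu72 (0.957) to Syt1, and Dlg2 (0.976), a postsynaptic scaffold, Thsd7b (0.957) and Glb1l2 (0.937) to Stmn2. Between 45 and 130 genes had a rho above 0.8 with each member, so these names are the top of long lists over 10 points. Without Naive replicate 5, the first-named gene stayed among the 3 most alike for every member except Sox10.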

How the data were processed

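RNA from 10 pools of sorted meningeal LECs was sequenced as paired reads. Per the labels and the study's methods, the authors amplified the RNA over the whole transcriptome, trimmed reads with cutadapt 1.9.1, aligned them with HISAT2 2.0.1 and counted reads on genes with HTSeq 0.6.1. The submitters' processing notes name the build GRCm38 and the paper's methods name mm9. The annotation and the use of strand are not given in the sources used here. The deposited values are raw counts per gene and replicate, with no normalization.

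From these counts, CPM were computed on each library's total, and a gene was tested if 3 or more replicates exceeded 5 counts. The test was that of edgeR 4.0.16 (R 4.3.3) by quasi-likelihood, with TMM scaling. P-values were adjusted by Benjamini-Hochberg, and 0.1 was the threshold. The labels do not name the animals in a pool, so a p-value measures the spread between these pools. The members and lists were chosen with earlier results of these data known. The genes named are the members, their listed paralogs, from each other list the 4 with the highest mean CPM and any called, and the 3 genes most like each member, and those outside this rule were chosen after their values were seen. Some genes that the rule names are not reported here. Of the lists checked for other cells, mural cell, leukocyte, erythroid, fibroblast, microglia and both endothelial lists had 0 calls by edgeR. Exon lengths, found for 32589 of 55401 identifiers (58.8%), came from GENCODE M1 (mm9). Positions came from RefSeq. Protein sequences were not used here. Alternatives were DESeq2 1.42.0, limma 3.58.1 with voom, a likelihood ratio test, other scalings, filters and pseudocounts, a replicate block, and leaving out each replicate. Those with DESeq2 or the lists without Naive replicate 5 were chosen after seeing the data.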

Additional observations from a re-analysis of the deposited data

Results flagged for a closer look

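In groups of 5, a replicate was listed when its distance to the nearest other replicate exceeded 0.71 of the group's range (Dixon's 95% criterion). Of 46 groups checked, 13 met it. For normally distributed values chance gives about 1 in 20, but CPM are skewed and the members were chosen by these counts, so the number is a description and supports nothing. In Naive replicate 5, Snap25 had 1538 CPM (next highest naive replicate 189), Syt1 had 129 CPM (next 2.06) and Stmn2 had 208 CPM (next 67.1). The members summed to 3417 CPM there (next 1038), the synaptic list to 2255 CPM (next 578) and the neuronal list to 2809 CPM (next 681). SCVS replicate 5 had 904 CPM of Snap25 (next highest SCVS replicate 190) and 100.1 CPM of Syt1 (next 22.9). SCVS replicate 3 had 151 CPM of Stmn2 (next 42.6). Among the lists of other cells, SCVS replicate 4 was far above the other SCVS replicates in microglial genes (1172 CPM, next 241) and leukocyte genes (7455 CPM, next 1192). SCVS replicate 5 was so in fibroblast genes (1952 CPM, next 451) and erythroid genes (4915 CPM, next 125).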

How the results depend on the processing

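No member was called under any of 19 alternatives each, and DESeq2 with all replicates gave Snap25 no adjusted p. The signs were less stable. Pmp22 was lower in SCVS in 19 of 19, Sox10 higher in 18, Snap25 and Stmn2 lower in 17, Mbp in 15, Gfap in 13 and Syt1 in 12. Leaving out 1 replicate at a time gave log2 fold changes between -1.17 and 0.74 for Mbp, -0.57 and -0.20 for Pmp22, -1.60 and 0.12 for Gfap, -0.26 and 1.43 for Sox10, -2.13 and 1.37 for Snap25, -1.95 and 5.54 for Syt1, and -1.59 and 0.27 for Stmn2. The reversed values were, without Naive replicate 5, Mbp 0.74, Gfap 0.02, Snap25 1.37, Syt1 5.54 and Stmn2 0.27 (by DESeq2 0.78, 0.05, 1.41, 5.62 and 0.28). Without Naive replicate 1, Gfap was 0.12. Without SCVS replicate 1, Gfap was 0.08 and Syt1 0.26. Without SCVS replicate 2, Mbp was 0.06, Gfap 0.09, Sox10 -0.26 and Syt1 0.29. Without SCVS replicate 3, Mbp was 0.05 and Gfap 0.08, and without SCVS replicate 4, Syt1 was 0.22. With voom, Syt1 was 2.13.

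Over all tested genes, edgeR's quasi-likelihood test called 0 with all replicates (460 at an unadjusted p below 0.05) and 0 with any 1 left out. DESeq2 called 114 (661 at an unadjusted p below 0.05), and 270 without Naive replicate 5. The likelihood ratio test called 38, and voom 3. The cause was not tested. DESeq2 called 1 gene each in the neuronal list and the paralogs (Prph in both), the mural cell list (Acta2) and the leukocyte list (Ptprc), where edgeR called 0. Prph passed the filter only through naive replicates and Ptprc only through SCVS replicates, so these calls are a description. Among genes with at least 10 counts in 5 or more replicates, the share highest in Naive replicate 5 was 10.0% for the myelin list and 40.0% for the synaptic list.

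Same-numbered pools hold different animals, so the numbers were not taken as pairs in the main fit. The correlation of their deviations lay between -0.017 and 0.149, above 0.1 for 1 of 5 pairs. The labels do not say whether same-numbered pools shared a batch, and these values do not settle it. With a replicate block edgeR called 0 genes, and the log2 fold changes were Pmp22 -0.39, Mbp -0.92, Sox10 2.01, Gfap -2.33, Snap25 -1.18, Stmn2 -0.71 and Syt1 1.49, the last reversed. Naive replicates 1, 2, 4 and 5 correlated best with their own number, and replicate 3 with SCVS replicate 1. At these depths, by counting error alone, a gene at 0 counts may still be present at up to 0.3005 CPM. Losses before or during amplification are not covered by this limit. The biological coefficient of variation in edgeR's fit was 1.59.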
